A study of Mus musculus with 6 samples.

Results

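Genes of red blood cell formation and of heme synthesis were compared in the livers of mouse pups at postnatal day 10. They were chosen as 34 symbols: 7 transcription and nuclear factors, 9 genes of heme synthesis and mitochondrial iron import, 5 of globins and their chaperone, 11 of the red cell membrane and its skeleton, and 2 ubiquitin ligases. Of these, 32 matched an entry of the deposited table by symbol, out of 24489 gene entries in all. Hbb-bt was found only in an entry joined with Hbb-b2, and 1 symbol, Ahsp, was not analysed here. The filter on low counts was passed by 30 of them, the joined entry included. The other 3 with an entry, Hbb-bs, Hba-a1 and Hba-a2, did not pass it.

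The 6 libraries were of polyadenylated RNA from 1 liver lobe, 3 from Jag1+/+ and 3 from Jag1Ndr/Ndr pups on a mixed C3H/C57bl6J background, untreated. Jag1 encodes a Notch ligand, and the Nodder (Ndr) allele, a germline missense change present in every cell type, is studied as a model of Alagille syndrome, a disorder with a paucity of bile ducts within the liver. The question was how the livers of homozygous mutants differed from those of wild-type pups. Depth ranged from 17548954 to 40499166 reads in the Jag1+/+ and from 12992592 to 59653111 reads in the Jag1Ndr/Ndr libraries. Xist and Y-linked reads marked Jag1+/+ replicate 1 and Jag1Ndr/Ndr replicates 2 and 3 as female, and the other 3 libraries as male. The labels do not say that each library is a separate animal, so the p-values measure only the spread between these libraries, part of which may be technical.

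The fetal liver makes red cells, and in the mouse this activity declines over the first weeks after birth while the bone marrow takes over. Erythroblasts are driven by Gata1, Klf1 and Tal1 and their partners. They make heme from glycine and succinyl-CoA through Alas2, the erythroid form of the first enzyme, and build a membrane held to a spectrin skeleton. Hepatocytes make heme too, through Alas1, mostly for cytochromes P450, and share the later enzymes with erythroblasts. In a bulk library, more erythroid cells and more RNA per cell cannot be told apart.

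In the Jag1Ndr/Ndr livers 8 of 11 membrane and skeleton genes and 2 of 7 transcription and nuclear factors rose, and 0 of 9 genes of heme synthesis passed the test. The difference between these groups of genes was not tested. Of the 30 genes tested 10 rose, among them Slc4a1 (4.28-fold), Kel (4.88-fold) and Nfe2 (4.15-fold), and 0 fell (edgeR's quasi-likelihood test on counts, Benjamini-Hochberg adjusted p under 0.05 over 13819 genes). Over all genes tested 4.73% rose and 2.9% fell. DESeq2 called 20 of the 30 higher, against 8.23% of all genes, and 0 lower. At an unadjusted p under 0.05 edgeR had 22 of them higher, against 13% of all genes, and 0 lower. The 3 Jag1Ndr/Ndr libraries all lay above the 3 Jag1+/+ libraries for 16 genes, and all below for 1, Cpox, where 14.8% and 14.2% of all genes did so. The median log2 fold change, Jag1Ndr/Ndr over Jag1+/+, was 1.74 over the 30 genes and 0.0041 over all genes tested. The 10 that rose had log2 fold changes between 1.69 (Tal1) and 2.29 (Kel), as the plot of fold changes shows.

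**Figure D1:**
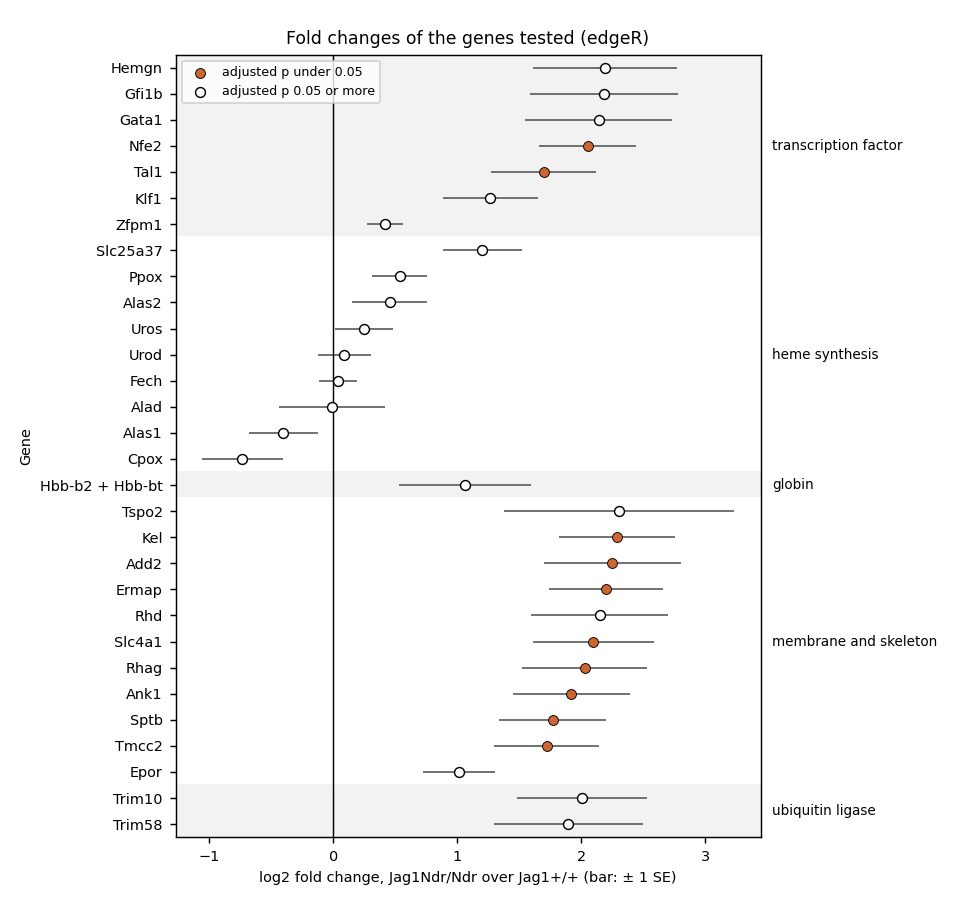
Fold changes of the 30 genes tested, grouped by role: the x axis is the log2 fold change of Jag1Ndr/Ndr over Jag1+/+, points are edgeR estimates from 3 libraries per genotype, bars are 1 standard error each way, and filled points have an adjusted p under 0.05. All 11 membrane and skeleton genes lie at 1.01 or above, while the 8 heme enzymes lie between -0.73 and 0.53.

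The calls depended on single libraries, as did those over all genes, which numbered 1054 in both directions with all libraries. Without Jag1+/+ replicate 2 or replicate 3 none of the 10 passed (edgeR adjusted p from 0.0853 to 0.173 and from 0.0685 to 0.164), with 20 and 19 of the 30 genes higher at an unadjusted p under 0.05. The calls over all genes numbered 282 and 319 in these fits. Without Jag1Ndr/Ndr replicate 1 or 2, or with sex as a covariate, Nfe2 alone of the 10 passed, and without Jag1+/+ replicate 1 Ermap, Nfe2, Rhag and Tal1 did. Over all genes there were 1211, 1034, 596 and 342 calls in these 4 fits. Without Jag1Ndr/Ndr replicate 3 all 10 passed, with 7 more of the 30, and 890 of all genes. In each of the 6 fits without 1 library the log2 fold change of all 10 stayed above 0, with the lowest at 1.28 (Tmcc2, without Jag1Ndr/Ndr replicate 2).

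The libraries followed a shared order. Jag1+/+ replicate 1 was the highest and replicate 3 the lowest of the Jag1+/+ libraries for 23 of the 30 genes, an order that 20.4% of all genes had. Jag1Ndr/Ndr replicate 3 was the lowest of its genotype for 28 of the 30, against 26.7% of all genes. Jag1Ndr/Ndr replicate 1 lay above every Jag1+/+ library for 28 genes, replicate 2 for 25 and replicate 3 for 16, where 38.5%, 36.5% and 33.4% of all genes did so. The order in Jag1+/+ and the low place of Jag1Ndr/Ndr replicate 3 held together for 22 of the 30 genes, against 7.72% of all genes. Replicate 3 was thus low in both genotypes. In level, Jag1Ndr/Ndr replicate 3 was the mutant library nearest to wild type, as the map of each gene by library shows. Jag1+/+ replicate 1 was the wild-type library nearest to the mutants. The labels give same-numbered libraries a shared number but do not say whether these belong together. The low levels of Jag1Ndr/Ndr replicate 3 therefore do not by themselves show a smaller change there. With the replicate number as a block 21 of the 30 genes rose, and 1430 of all genes changed (edgeR adjusted p under 0.05). These genes share their libraries, and those of the 2 genotypes differed in depth and sex.

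**Figure D2:**
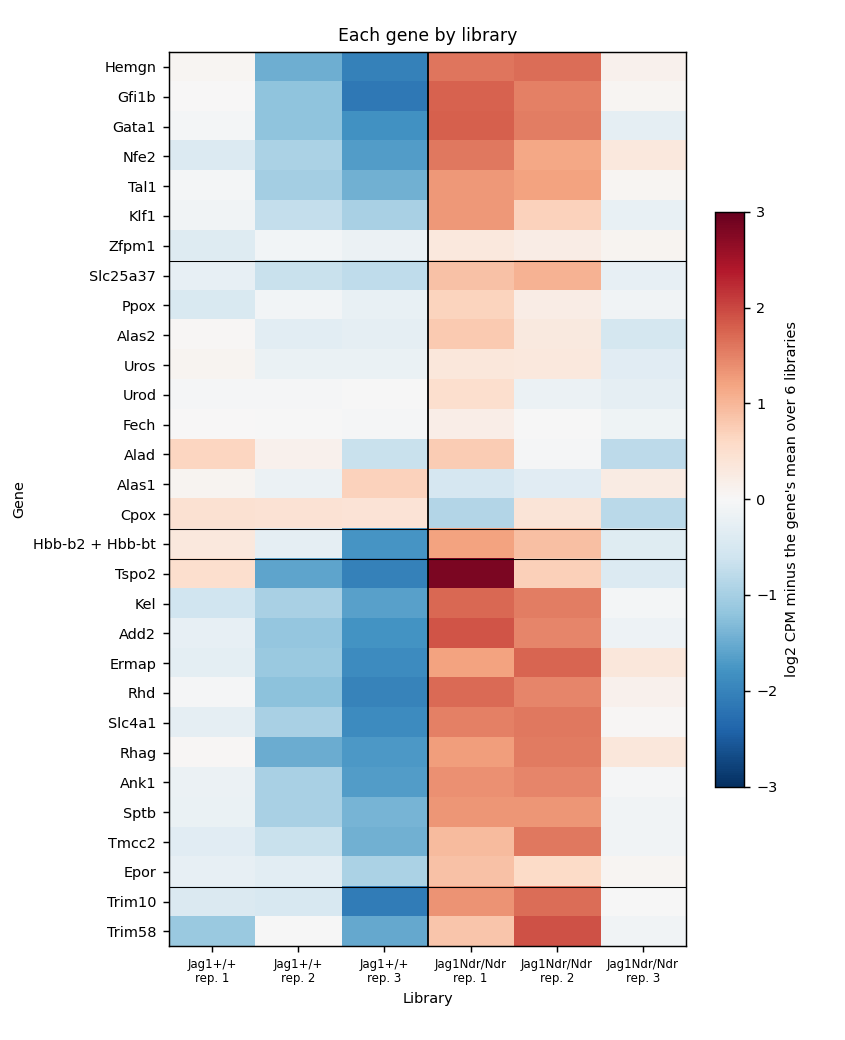
Each gene by library: rows are the 30 genes tested in role order, columns are the 6 libraries, and colour is log2 CPM minus the mean of that gene over the 6 libraries. Most rows outside heme synthesis run from pale to dark blue across Jag1+/+ replicates 1 to 3, are red in Jag1Ndr/Ndr replicates 1 and 2, and are pale in replicate 3.

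Among the transcription factors, 2 of 7 rose and all 7 were higher at an unadjusted p under 0.05 (median log2 fold change 2.05). Nfe2, the larger subunit of a factor that binds the globin locus control region, stood at 8.92, 6.13 and 3.72 CPM (TMM-scaled counts relative to library size) in Jag1+/+ replicates 1, 2 and 3. In Jag1Ndr/Ndr replicates 1, 2 and 3 it stood at 35.5, 26.8 and 14.8 CPM. Its groups lay apart, the lowest mutant library being 1.66 times the highest wild-type one, and its log2 fold change was 2.05 ± 0.39 (SE, edgeR adjusted p = 0.0191).

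Tal1, a basic helix-loop-helix factor needed for all blood lineages, had 9.21, 4.71 and 3.51 CPM in Jag1+/+ and 23.5, 22.1 and 9.97 CPM in Jag1Ndr/Ndr libraries (log2 fold change 1.69 ± 0.43, edgeR adjusted p = 0.0488). Its groups did not overlap, but Jag1Ndr/Ndr replicate 3 was only 1.08 times Jag1+/+ replicate 1. Hemgn, a nuclear protein of blood progenitors and a Gata1 target, had the highest log2 fold change of the factors, 2.19 ± 0.58, and missed the threshold (edgeR adjusted p = 0.0582). Its CPM were 12.6, 4.41 and 3.00 in Jag1+/+ and 37.1, 38.9 and 13.2 in Jag1Ndr/Ndr libraries, so that 2 mutant libraries stood well above and the third close to Jag1+/+ replicate 1.

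Gata1, the master factor of the lineage, averaged 2.64 ± 1.67 CPM (SD, n = 3) in wild-type and 11.3 ± 6.56 CPM in mutant livers, and did not pass (log2 fold change 2.14 ± 0.59, edgeR adjusted p = 0.0651). Jag1Ndr/Ndr replicate 3, at 3.89 CPM, lay below Jag1+/+ replicate 1, at 4.52 CPM, so the groups overlapped. The repressor Gfi1b (adjusted p = 0.0633 by edgeR) and Klf1, which activates adult beta-globin (0.0876), did not pass either. Zfpm1, the Gata1 cofactor also called FOG-1, had the highest level per transcript length of the factors in Jag1+/+ livers, 11.6 RPKM (mean of reads scaled by length and depth). In Jag1Ndr/Ndr livers it had 15.5 RPKM and Nfe2 15.8 RPKM. It also had their lowest log2 fold change, 0.41 ± 0.15 (edgeR adjusted p = 0.132). Its libraries were tight, at 33.8, 41.7 and 39.2 CPM in Jag1+/+ and 55.0, 51.7 and 46.3 CPM in Jag1Ndr/Ndr, and it did not show the order of the other factors, replicate 1 being the lowest wild-type library.

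**Figure D3:**
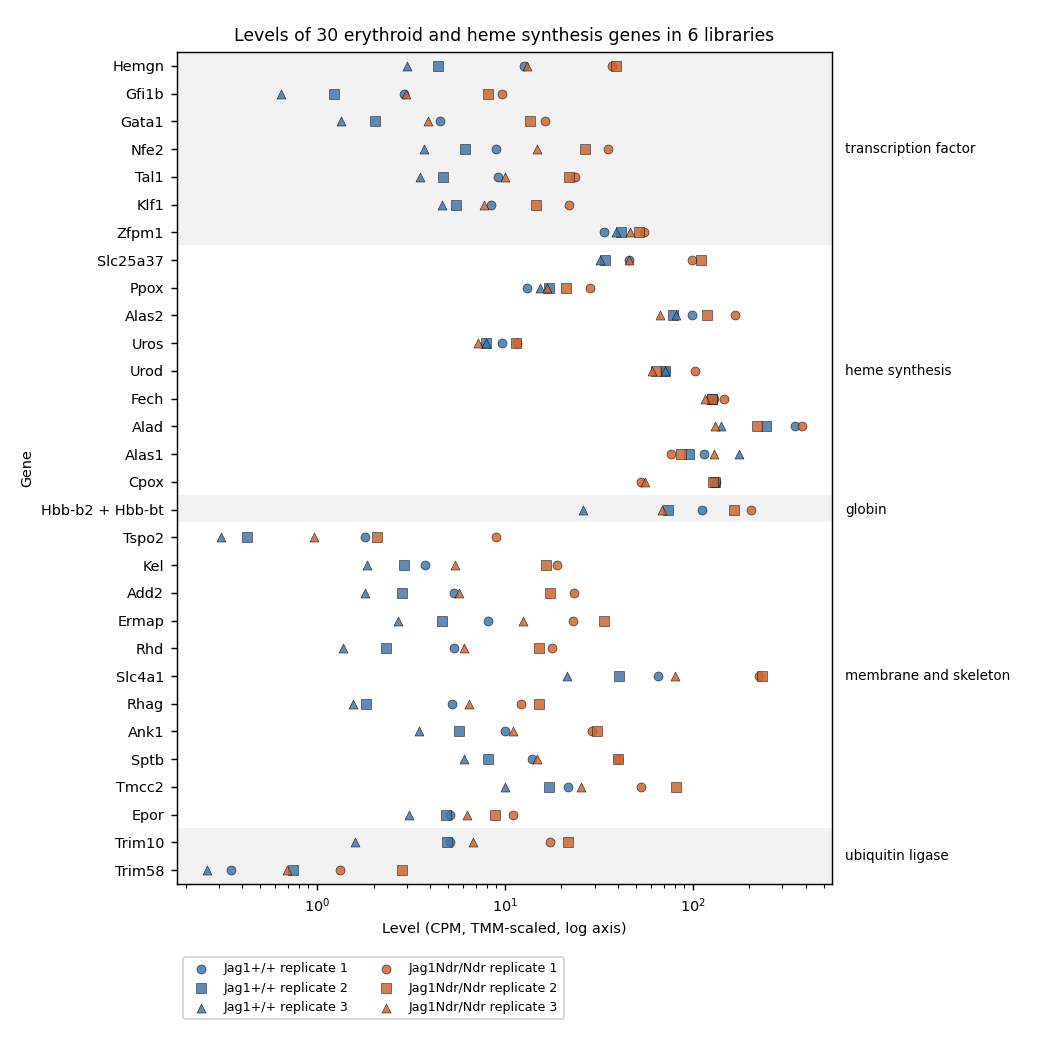
Levels of the 30 genes tested: the x axis is CPM on a log scale, each point is a library, colour gives the genotype and the shape the replicate number. The membrane genes part into 2 colours, apart from Tspo2, while those of heme synthesis mix.

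Of the 11 membrane and skeleton genes 8 rose, and all 11 were higher at an unadjusted p under 0.05 (median log2 fold change 2.10). Slc4a1, the band 3 anion exchanger (chromosome 11, positions 102348820 to 102365281 of GRCm38), had the highest level per length, a mean of 9.53 RPKM in wild-type and 40.7 RPKM in mutant livers. Its CPM were 65.1, 40.2 and 21.3 in Jag1+/+ replicates 1, 2 and 3 and 225, 234 and 80.7 in Jag1Ndr/Ndr replicates 1, 2 and 3. The groups lay apart, with Jag1Ndr/Ndr replicates 1 and 2 nearly equal and replicate 3 at 1.24 times the highest wild-type library (log2 fold change 2.10 ± 0.49, edgeR adjusted p = 0.0393).

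Of the blood group genes Kel, Ermap and Rhag rose. Kel, an endopeptidase that carries the Kell antigens (chromosome 6, positions 41686329 to 41704334), stood at 3.76, 2.89 and 1.83 CPM in Jag1+/+ and 18.9, 16.6 and 5.44 CPM in Jag1Ndr/Ndr libraries. It had the highest log2 fold change of the genes that passed, 2.29 ± 0.47 (edgeR adjusted p = 0.0253). Ermap, which carries the Scianna antigens, had 8.11, 4.61 and 2.71 CPM in Jag1+/+ and 23.0, 33.7 and 12.5 CPM in Jag1Ndr/Ndr libraries (edgeR adjusted p = 0.0264). Both genes kept a clear gap between the genotypes, the lowest mutant library being 1.45 and 1.55 times the highest wild-type one. Rhag, the Rh-associated ammonia channel, had 5.21, 1.82 and 1.55 CPM in Jag1+/+ and 12.1, 15.1 and 6.45 CPM in Jag1Ndr/Ndr libraries (edgeR adjusted p = 0.0480), with Jag1+/+ replicate 1 well above the other wild-type libraries. Without that library its log2 fold change moved from 2.03 to 2.74 and passed (edgeR adjusted p = 0.0298). Rhd, the partner of Rhag, did not pass, though its groups lay apart (3.03 ± 2.10 and 13.1 ± 6.23 CPM, edgeR adjusted p = 0.0525).

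The promoter of Kel is shown because it held both motifs searched, and Kel led the genes that rose. The window runs from 250 bases before to 50 after the start of the RefSeq transcript (chr6:41704276-41704575 of GRCm38, minus strand), and capitals mark AGATAA, a core bound by GATA factors, and CACCC, a box bound by KLF factors.
Kel: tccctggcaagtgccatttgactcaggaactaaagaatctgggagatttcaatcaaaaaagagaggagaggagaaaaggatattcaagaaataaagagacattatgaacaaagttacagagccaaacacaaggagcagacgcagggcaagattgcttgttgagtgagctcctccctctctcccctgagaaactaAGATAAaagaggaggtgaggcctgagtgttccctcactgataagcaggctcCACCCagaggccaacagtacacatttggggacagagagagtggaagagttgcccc
Windows were given for 28 of the 34 genes. AGATAA, searched on both strands, stood in 10 of these 28 and in 12.7% of the 27025 genes with a window. CACCC stood in 25 of 28 and in 59.8% of all. Of the 10 genes that rose 7 had a window, 3 of them with AGATAA and all 7 with CACCC. A match says only that these letters are present.

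Genes of the membrane skeleton rose by similar amounts. Sptb, erythroid beta-spectrin, had 14.0, 8.15 and 6.05 CPM in Jag1+/+ and 40.1, 40.2 and 14.8 CPM in Jag1Ndr/Ndr libraries (log2 fold change 1.77 ± 0.43, edgeR adjusted p = 0.0446). Ank1, the ankyrin that ties band 3 to spectrin, had 9.96, 5.68 and 3.49 CPM against 29.1, 31.1 and 11.0 CPM (1.92 ± 0.47, edgeR adjusted p = 0.0454). Both showed the same picture, with 2 mutant libraries near each other and Jag1Ndr/Ndr replicate 3 only 1.06 and 1.10 times Jag1+/+ replicate 1.

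Add2, beta-adducin, which caps actin at the spectrin junctions, had 5.33, 2.82 and 1.81 CPM in Jag1+/+ and 23.3, 17.4 and 5.71 CPM in Jag1Ndr/Ndr libraries (2.25 ± 0.55, edgeR adjusted p = 0.0454). Tmcc2, a transmembrane protein abundant in erythroid cells, had 21.7, 17.2 and 10.1 CPM against 53.1, 81.3 and 25.5 CPM (1.72 ± 0.42, edgeR adjusted p = 0.0464). Of the 8 that rose, Tmcc2, Ermap, Rhag, Slc4a1, Ank1 and Sptb were highest in Jag1Ndr/Ndr replicate 2, and Kel and Add2 in replicate 1. Ank1 overlaps lncRNA genes and Sptb the end of Plekhg3, and with no strand marked their reads in shared stretches could belong to either gene.

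Tspo2, an erythroid cholesterol-binding protein of the membrane, had the highest log2 fold change of the membrane genes, 2.30 ± 0.93, and did not pass (edgeR adjusted p = 0.185). Its CPM of 1.80, 0.422 and 0.310 in Jag1+/+ and 8.95, 2.09 and 0.960 in Jag1Ndr/Ndr libraries overlapped, and the value rested on few reads, from 12 to 149 per library. The erythropoietin receptor Epor had the lowest, 1.01 ± 0.29 (edgeR adjusted p = 0.0732), with 5.10, 4.87 and 3.10 CPM in Jag1+/+ and 11.1, 8.91 and 6.29 CPM in Jag1Ndr/Ndr libraries. Its groups lay apart. The ubiquitin ligase genes Trim10 and Trim58, of terminal red cell maturation, did not pass (edgeR adjusted p = 0.0553 and 0.0999). Trim10 had 5.10, 4.90 and 1.60 CPM in Jag1+/+ and 17.3, 21.8 and 6.77 CPM in Jag1Ndr/Ndr libraries, without overlap, whereas Trim58, the lowest of the group at 0.258 to 2.82 CPM, overlapped.

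Of the 9 genes of heme synthesis 0 passed in either direction by edgeR and 0 lay higher in all 3 mutant libraries, with 2 higher and 0 lower at an unadjusted p under 0.05 (median log2 fold change 0.09). DESeq2 called 1 of them higher, Slc25a37. Per length, the enzymes ranged from 4.83 RPKM (Uros) to 61.0 RPKM (Urod) in Jag1+/+ livers. Alas2, the erythroid first enzyme, had 98.7, 78.2 and 81.0 CPM in Jag1+/+ and 167, 119 and 67.3 CPM in Jag1Ndr/Ndr libraries. Jag1Ndr/Ndr replicates 1 and 2 were the highest of all 6 libraries and replicate 3 the lowest, and the difference did not pass (log2 fold change 0.45 ± 0.30, edgeR adjusted p = 0.432). Alas2 lies within the bounds that RefSeq gives for Apex2, and reads in shared stretches cannot be told apart.

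Alas1, the first enzyme outside red cells, had 115, 95.7 and 176 CPM in Jag1+/+ and 76.3, 86.5 and 130 CPM in Jag1Ndr/Ndr libraries (log2 fold change -0.40 ± 0.28, edgeR adjusted p = 0.454). Replicate 3 was the highest library of each genotype, unlike in the erythroid genes. The isozymes had like levels per length, 45.7 RPKM for Alas2 and 49.9 RPKM for Alas1 in Jag1+/+ livers, and 62.7 and 37.7 RPKM in Jag1Ndr/Ndr livers. Within each library, Alas2 reads over Alas1 reads came to 0.855, 0.817 and 0.460 in Jag1+/+ and to 2.19, 1.37 and 0.520 in Jag1Ndr/Ndr, so that replicate 3 of both genotypes was low and the genotypes overlapped.

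The promoters of this isozyme pair are shown because they drive the same reaction in different cells (Alas2 at chrX:150547167-150547466, plus strand, and Alas1 at chr9:106247905-106248204, minus strand, the upstream of its 2 windows). Capitals again mark AGATAA and CACCC or their reverse complements, TTATCT and GGGTG.
Alas2: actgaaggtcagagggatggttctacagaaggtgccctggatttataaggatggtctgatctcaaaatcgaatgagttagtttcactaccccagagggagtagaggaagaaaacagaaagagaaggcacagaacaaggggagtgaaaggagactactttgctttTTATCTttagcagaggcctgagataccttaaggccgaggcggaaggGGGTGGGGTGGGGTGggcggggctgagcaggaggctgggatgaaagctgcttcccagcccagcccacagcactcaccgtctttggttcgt
Alas1: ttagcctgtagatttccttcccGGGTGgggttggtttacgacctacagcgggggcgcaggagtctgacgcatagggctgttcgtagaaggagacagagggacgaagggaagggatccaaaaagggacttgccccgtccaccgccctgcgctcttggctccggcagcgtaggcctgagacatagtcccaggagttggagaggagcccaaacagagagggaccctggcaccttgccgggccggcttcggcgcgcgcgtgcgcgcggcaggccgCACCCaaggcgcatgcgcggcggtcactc
Alas2 held AGATAA once and CACCC 3 times, all on the minus strand, in direct succession. Alas1 held no AGATAA in this window and CACCC 2 times.

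Of the later enzymes, Urod had the highest level per length and was almost constant in wild type, at 70.8, 71.2 and 71.5 CPM. In Jag1Ndr/Ndr libraries it stood at 103, 63.6 and 60.5 CPM, above wild type in replicate 1 and below it in the others. Cpox, coproporphyrinogen oxidase of the mitochondrion, was equally constant in Jag1+/+, at 133, 131 and 131 CPM, but not in the mutants, at 52.8, 128 and 55.8 CPM. All mutant libraries lay below all wild-type ones, by far in replicates 1 and 3 and barely in replicate 2, and the change did not pass (log2 fold change -0.73 ± 0.32, edgeR adjusted p = 0.228). Without Jag1Ndr/Ndr replicate 2 it was -1.27 and passed (edgeR adjusted p = 0.00410).

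Alad, the second enzyme, spanned 141 to 351 CPM in Jag1+/+ and 131 to 382 CPM in Jag1Ndr/Ndr libraries, with replicate 1 high and replicate 3 low in both genotypes (log2 fold change -0.01 ± 0.43), and its sign turned with scaling. Fech, ferrochelatase, which inserts the iron, had close means in the genotypes, at 127 ± 2.74 and 130 ± 15.5 CPM. Uros and Ppox, uroporphyrinogen synthase and protoporphyrinogen oxidase, did not pass at 0.25 ± 0.23 and 0.53 ± 0.22 on the log2 scale (adjusted p from edgeR 0.604 and 0.197).

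Slc25a37, mitoferrin 1, which brings iron into mitochondria, had the highest log2 fold change of the heme genes, 1.20 ± 0.32 (edgeR adjusted p = 0.0577). It had 45.5, 34.2 and 32.0 CPM in Jag1+/+ and 99.6, 111 and 45.5 CPM in Jag1Ndr/Ndr libraries. Jag1Ndr/Ndr replicate 3 thus equalled Jag1+/+ replicate 1, while the other mutant libraries stood above all wild-type ones.

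Globin was measured only in part. Hba-a1 and Hba-a2, the alpha-globin genes on chromosome 11, were each listed at 0 reads in all 6 libraries, and Hbb-bs, an adult beta-globin gene on chromosome 7, had 1 read in all. These genes are among the most abundant of any erythroid cell, so a listed 0 is no measure of their level. The counting length implied by the deposited RPKM was 9 bases for Hbb-bs, a value resting on its 1 read. For the joined entry of Hbb-b2 and Hbb-bt it was 613 bases. Few bases of Hbb-bs were thus countable, and the cause was not tested. The coding sequences of these globin genes are near copies within each pair. In the GENCODE transcripts Hbb-bs and Hbb-bt differed at 1 of 444 coding bases, and Hba-a1 and Hba-a2 at 1 of 429. Of all 50-base windows of the coding sequence, 92.9% of Hbb-bs were also in Hbb-bt, and 87.1% of Hba-a1 in Hba-a2. The stretch of 120 coding bases that ends with the difference between the beta-globin genes (coding bases 298 to 417) is shown, with that base in capitals, and after it the first 120 coding bases of Hba-a1, which Hba-a2 shares throughout.
Hbb-bs: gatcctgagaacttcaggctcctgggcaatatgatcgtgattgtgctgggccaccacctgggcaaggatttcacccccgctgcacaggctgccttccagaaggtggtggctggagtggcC
Hbb-bt: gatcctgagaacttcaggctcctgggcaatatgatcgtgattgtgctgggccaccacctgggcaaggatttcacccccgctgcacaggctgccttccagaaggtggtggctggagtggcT
Hba-a1: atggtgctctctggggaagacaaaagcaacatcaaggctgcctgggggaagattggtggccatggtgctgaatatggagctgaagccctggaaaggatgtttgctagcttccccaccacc
The sources used here do not give how reads with several matching positions were counted.

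The joined entry of Hbb-b2 and Hbb-bt did hold reads. It had 111, 74.1 and 26.0 CPM in Jag1+/+ and 205, 166 and 68.8 CPM in Jag1Ndr/Ndr libraries, following the library order of the membrane genes, with the groups overlapping (log2 fold change 1.06 ± 0.53, edgeR adjusted p = 0.291). C57BL/6 and C3H mice are known to carry different beta-globin haplotypes, of which Hbb-bs and Hbb-bt form the one and Hbb-b1 and Hbb-b2 the other, so this entry mixes both. The embryonic globins Hbb-y, Hbb-bh1 and Hba-x had at most 2 reads in any library.

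Slc4a1 was higher relative to Alas2 and to the beta-globin entry in the mutants, a contrast chosen after the values were seen and free of any scaling between libraries. Slc4a1 reads over Alas2 reads were 0.660, 0.515 and 0.263 in wild-type replicates 1, 2 and 3, and 1.35, 1.97 and 1.20 in the mutant ones. Over the joined beta-globin entry they came to 0.585, 0.543 and 0.819 in Jag1+/+ and to 1.10, 1.41 and 1.17 in Jag1Ndr/Ndr libraries. In both cases each mutant library lay above each wild-type one, Jag1Ndr/Ndr replicate 3 included. The genes were picked with their folds known, 4.28 for Slc4a1, 1.37 for Alas2 and 2.09 for the joined entry. The separation is thus no separate support, and how many other gene pairs part this way was not counted. The joined entry also mixes both beta-globin haplotypes, and how these were spread over the libraries was not tested. The ratio of the 2 denominators was not steady. Alas2 reads over those of the joined entry were 0.887, 1.06 and 3.11 in Jag1+/+ replicates 1, 2 and 3. In the Jag1Ndr/Ndr ones they were 0.815, 0.714 and 0.978, and the genotypes overlapped.

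**Figure D4:**
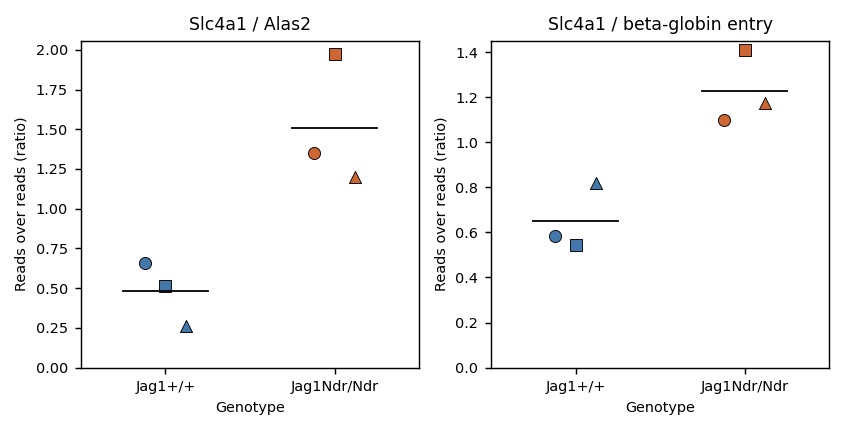
Reads of Slc4a1 over reads of Alas2 (left) and over those of the joined beta-globin entry (right), each starting at 0 on the y axis: points are libraries, shapes give replicates 1 (circle), 2 (square) and 3 (triangle), and lines are means of 3. The Jag1Ndr/Ndr libraries sit between 1.20 and 1.97 on the left and between 1.10 and 1.41 on the right, above all Jag1+/+ libraries. The genes were chosen after their values were seen.

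Of 71 further genes of red cells, heme and iron that were tested, 9 rose and 3 fell (edgeR adjusted p under 0.05), with a median log2 fold change of 0.25. Over all genes tested 4.73% rose and 2.9% fell, with a median of 0.0041. In the erythroid list 5 of 32 rose and 0 fell. At an unadjusted p under 0.05 by edgeR, 16 of them were higher, against 13% of all genes, and 0 lower. Tmod1, which caps actin in the skeleton, Dyrk3, a kinase, Mgst3 and Lmo2, a partner of Tal1, were among those that rose (edgeR adjusted p = 0.0271, 0.0344, 0.0141 and 0.0197). The transferrin receptors Tfrc and Tfr2, the latter also a hepatocyte gene, did not pass (log2 fold changes -0.49 ± 0.39 and 0.07 ± 0.21).

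Of 18 genes of heme and iron supply 1 rose and 1 fell, close to the shares of 4.73% and 2.9% over all genes. Abcb10, a mitochondrial transporter that binds mitoferrin, rose from 25.5 ± 1.31 to 39.7 ± 5.72 CPM (edgeR adjusted p = 0.0438). Fam210b, a mitochondrial protein of erythroid differentiation, fell 2.77-fold, from 322, 371 and 289 CPM to 102, 131 and 120 CPM (edgeR adjusted p = 0.00435). This went against the direction of the erythroid genes. Its level in Jag1+/+ livers was 93.1 RPKM, where Slc4a1 had 9.53 RPKM, and it did not follow their library order. Which cells its RNA came from was not tested. Of 12 genes of heme use and breakdown, 2 rose and 0 fell. Hmox1, heme oxygenase 1, went from 96.5, 103 and 67.6 CPM to 295, 245 and 185 CPM (1.44 ± 0.24, edgeR adjusted p = 0.0116) and Hpx, the plasma heme scavenger hemopexin and an acute phase protein, rose 2.43-fold (edgeR adjusted p = 0.0186). Hmox1 is made by macrophages and stressed hepatocytes and is no erythroid marker.

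In the erythropoietin list 1 of 9 genes rose and 2 fell, where 4.73% and 2.9% of all genes did so. The gene of erythroferrone, the hormone with which erythroblasts lower hepcidin (entry Fam132b, now Erfe), had 7, 5 and 10 reads in Jag1+/+ and 54, 127 and 17 reads in Jag1Ndr/Ndr replicates 1, 2 and 3, or 0.405, 0.162 and 0.258 against 4.79, 1.78 and 0.907 CPM. Its log2 fold change of 3.17 ± 0.68 passed (edgeR adjusted p = 0.0282) and moved to 2.39 without Jag1Ndr/Ndr replicate 1. Stat5a and Stat5b, which act below the erythropoietin receptor in erythroblasts and below the growth hormone receptor in hepatocytes, fell 1.69-fold and 1.72-fold (edgeR adjusted p = 0.0351 and 0.0318), and lost their calls with library totals in place of TMM (0.155 and 0.157). Epo itself had 0 to 47 reads per library and did not pass.

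Of these 12 changed genes, 4, 2 and 1 kept their edgeR call without Jag1+/+ replicates 1, 2 and 3, and 10, 8 and 10 without Jag1Ndr/Ndr replicates 1, 2 and 3. Fam210b kept it in all 6 cases, but not with limma on the deposited RPKM at a pseudocount of 1 (adjusted p = 0.0529), where Abcb10, Lmo2, Stat5a and Stat5b did not pass either (0.313, 0.119, 0.778 and 0.606). With sex as a covariate Fam132b, Fam210b, Hmox1, Hpx and Mgst3 kept theirs.

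Markers of other cells were also compared, and their lists went in different directions. Over all genes tested 4.73% rose and 2.9% fell by edgeR, and 13% were higher at an unadjusted p under 0.05. Of 6 megakaryocyte markers 0 passed by edgeR, with 3 higher at an unadjusted p under 0.05, and their summed level ran from 23.0 to 67.6 CPM in Jag1+/+ and from 62.3 to 126 CPM in Jag1Ndr/Ndr libraries, with replicate 3 the lowest of each genotype. Megakaryocytes also express Gata1, Tal1, Nfe2, Gfi1b and Zfpm1. The 5 neutrophil precursor markers all rose, from sums of 48.0 to 72.3 CPM to sums of 121 to 355 CPM, and Jag1Ndr/Ndr replicate 2 was the highest. Of 5 B cell precursor markers 1 fell, Cd79b (sums of 40.3 to 58.4 against 10.9 to 40.0 CPM). Of 5 markers of dividing cells 0 passed by edgeR, with 0 at an unadjusted p under 0.05. Of 6 macrophage markers 0 passed by edgeR, with 2 higher at an unadjusted p under 0.05 (sums of 429 to 711 against 722 to 1130 CPM). Cd5l and Spic lay higher in all mutant libraries, as 14.8% of all genes did, and the other 4 overlapped. Much of the gap in the sums was that of Cd5l, with 308, 218 and 163 CPM in Jag1+/+ and 612, 333 and 395 CPM in Jag1Ndr/Ndr libraries. Of 5 hepatocyte markers 1 fell, Ttr, and their sum lay between 213300 and 219800 CPM in Jag1+/+ and between 100400 and 180100 CPM in Jag1Ndr/Ndr libraries. The part of these cells in the changes of the erythroid genes was not tested.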

How the data were processed

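RNA-seq of 6 liver libraries was used. Whole-number counts per RefSeq gene entry and RPKM were deposited by the authors. Per the file headers, the RPKM carry a TMM factor for each library, by which they had been multiplied. STAR and the build mm10 stand in the submitters' processing notes with no version, and no source used here names a read counter. Entries for spike-ins and eGFP, 93 with a total of 5 reads, were set aside.

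Of 24489 entries, filterByExpr kept 13819, and these were tested after TMM scaling with edgeR 4.0.16 in R 4.3.3 (quasi-likelihood, two-sided, Benjamini-Hochberg). Each SE is the log2 fold change divided by the square root of its F statistic. RPKM in the text are TMM-scaled CPM over the counting length implied by the deposited RPKM. Groups and replicate numbers came from the labels. The genes, lists and tests were chosen with earlier results of these data known. Given in full were genes past the threshold, Alas1, Alas2, the globins and, in each role, the genes with the highest level and the highest and lowest fold change. The remaining genes and read ratios were picked after their values were seen. Gene positions and promoters are RefSeq's on GRCm38.p6, and transcripts are GENCODE's. With 0 reads, a level of up to 0.266 CPM (shallowest library) or 0.0421 CPM (deepest) remains possible, taking 3 reads as the limit and covering counting error only. Alternatives were DESeq2 1.42.0, limma 3.58.1 on log2 RPKM, other scalings and filters, sex, a replicate block and leaving out each library. On counts simulated for this comparison over 13819 genes, edgeR called 24 of 100 genes changed 2-fold, 87 of 100 changed 4-fold and 6 of 13619 unchanged ones. Results for some genes of the lists are not reported here.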

Additional observations from a re-analysis of the deposited data

How the results depend on the processing

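The 10 genes of red cell formation and heme synthesis that rose numbered 10 with RLE scaling and with a filter at 1 CPM in 3 libraries, the same 10 in both. They numbered 6 with library totals in place of TMM, 16 without a filter and 20 by DESeq2. With limma on the deposited RPKM they numbered 9 and 14 (pseudocounts 1 and 0.1). With sex as a covariate 1 rose, and 0 to 17 did when 1 library was left out. Over all genes, calls in both directions numbered 1060 of 13819 with RLE scaling and 990 of 12810 with the filter at 1 CPM. They numbered 816 of 13819 with library totals, 1277 of 18418 without a filter and 1890 of 13819 by DESeq2. With limma they were 489 and 544, with sex as a covariate 596, and with 1 library left out 282 to 1211. Of the 30 genes, the number that fell was 0 to 1 when 1 library was left out, Cpox passing without Jag1Ndr/Ndr replicate 2. Of the further erythroid, heme and iron genes, 19 rose by DESeq2, 5 with sex as a covariate, and 0 to 16 with 1 library left out. Those that fell numbered 1 with library totals, with the deposited RPKM at a pseudocount of 1 and with sex as a covariate, and 1 to 5 with 1 library left out. The median log2 fold change of all genes was 0.13 with library totals, and 0.18 and 0.22 in the deposited RPKM at pseudocounts of 1 and 0.1.

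The log2 fold change of Alad was 0.043 with library totals, 0.19 in the deposited RPKM at either pseudocount, and -0.49 to 0.33 with 1 library left out. With 1 library left out that of Urod ran from -0.20 to 0.23 and that of Fech from -0.069 to 0.11, both below 0 without Jag1Ndr/Ndr replicate 1 alone. The cause of these changes was not tested.

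With a replicate block 21 of the 30 genes rose, Gata1, Klf1 and the joined beta-globin entry among those gained, and 19 of the further genes. Over all 13819 genes 1430 changed with the block and 1054 without it. The descriptions in the labels also give same-numbered libraries of both genotypes a shared number, and do not say whether it marks a litter, batch or day. Deviations from the genotype means of same-numbered libraries correlated at 0.0856, 0.170 and 0.195 for numbers 1, 2 and 3, over 13819 genes, and every library correlated best with its own number, a hint from the data. As the first correlation was under 0.1 and the labels leave the number unexplained, the libraries were treated as unpaired. Whether they are pairs was not settled by these values, and the calls depend on this choice.

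With 3 libraries per genotype 24 of 100 genes changed 2-fold were recovered in the simulation, so changes of 2-fold or less can often be missed. The simulation held 100 changes of 2-fold and 100 of 4-fold and drew each gene independently. In the data 1054 genes were called and the 30 genes shared a library order. The simulated rates therefore need not be those of these genes.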
